A study of Saccharomyces cerevisiae with 12 samples.

Results

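The 4 genes of the SUN family (NCA3, UTH1, SIM1 and SUN4) and 5 genes whose products separate a daughter cell from its mother (CTS1, DSE1, DSE2, EGT2 and SCW11) were followed in Saccharomyces cerevisiae under reductive stress. These 9 genes, of 5449 measured, were taken by gene symbol, and each had a single probe set. NCA3 (YJL116C) was chosen by its measured log2 signals, as the largest rise of all genes in hac1∆ over WT, so that difference is given as a description with no test. The other 8 were taken by family or by function: UTH1 (YKR042W), SIM1 (YIL123W), SUN4 (YNL066W), CTS1 (YLR286C), DSE1 (YER124C), DSE2 (YHR143W), EGT2 (YNL327W) and SCW11 (YGL028C). They were chosen with earlier results of these data known, so their p-values are not fully independent of that choice.

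RNA came from 12 cultures, 3 of each strain, which the labels call biological replicates. The strains were hac1∆(hsf1) and hac1∆, which lack HAC1, and WT(hsf1) and WT, which have it. All 4 grew at 30 C in SD-URA medium, and all were exposed for 2 h to 2.5 mM dithiothreitol (DTT), which reduces the disulfide bonds of proteins folding in the secretory pathway. Cultures without DTT were not analysed here. What "(hsf1)" stands for and whether a strain is a single clone are not stated in the labels, so the name only tells strains apart. P-values measure the spread between these cultures. Levels are log2 signals of Affymetrix yeast arrays, so a difference of 1 is a 2-fold change, and levels of different genes cannot be set against each other.

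Budding yeast closes the neck between mother and daughter with a chitin septum, which wall-degrading enzymes then digest, mostly from the daughter's side. The genes for these enzymes are transcribed mainly in the daughter as mitosis ends and G1 begins, and separation also needs the kinase Cbk1 and its partner Mob2. SUN proteins are secreted or wall-bound, share a C-terminal domain, and have been linked to glucan remodelling and septation, and several also to mitochondria. NCA3 and UTH1 are paralogs, as are SIM1 and SUN4, and signal shared between their probe sets was not tested. HAC1 codes for the transcriptional activator of the unfolded protein response, and HSF1 for the heat shock factor.

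HAC1 was below background (5.49) on all 6 arrays of the hac1∆ strains. HSF1 lay between 10.54 and 10.81 in hac1∆(hsf1), between 7.75 and 7.87 in hac1∆ and between 8.41 and 8.63 in WT(hsf1), and the WT arrays gave 8.08, 9.61 and 8.11, the high one being replicate 2. WT replicate 2 also stood apart over all genes. Its correlation across genes with each hac1∆(hsf1) array was 0.973 to 0.978, against 0.942 to 0.951 for WT replicate 1 and 0.939 to 0.948 for WT replicate 3. Counts of members that rest on WT are therefore given with and without it.

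Markers of the haploid mating types differed between the strains. The mean signal of 5 a-cell genes was 8.51 to 8.61 in hac1∆(hsf1), 8.94 to 8.99 in hac1∆, 9.40 to 9.55 in WT(hsf1) and 9.09 to 9.32 in WT. MF(ALPHA)1, the alpha-factor gene, gave 6.0019, 5.96 and 5.81 in hac1∆(hsf1), 6.12, 6.17 and 6.22 in hac1∆, 6.34, 6.72 and 6.88 in WT(hsf1), and 8.17, 8.45 and 8.88 in WT. All WT arrays lay above all others for this gene, and of the 3 other alpha-cell genes only STE3 in WT(hsf1) against WT (0.19 ± 0.07, limma adjusted p = 0.0206) and SAG1 in hac1∆(hsf1) against WT(hsf1) (0.24 ± 0.07, adjusted p = 0.00687) were called in any pair of strains compared. The part of these markers in the results was not tested.

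All 9 genes were above background on all 12 arrays, and they fell into 3 patterns. CTS1, DSE1, DSE2, EGT2, SCW11 and SUN4 had their highest mean in WT(hsf1), the next in WT and the lowest means in the 2 strains without HAC1. NCA3 had the opposite order, high without HAC1 and lowest in WT(hsf1). UTH1 and SIM1 differed least between strains, and WT had their lowest mean.

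**Figure D1:**
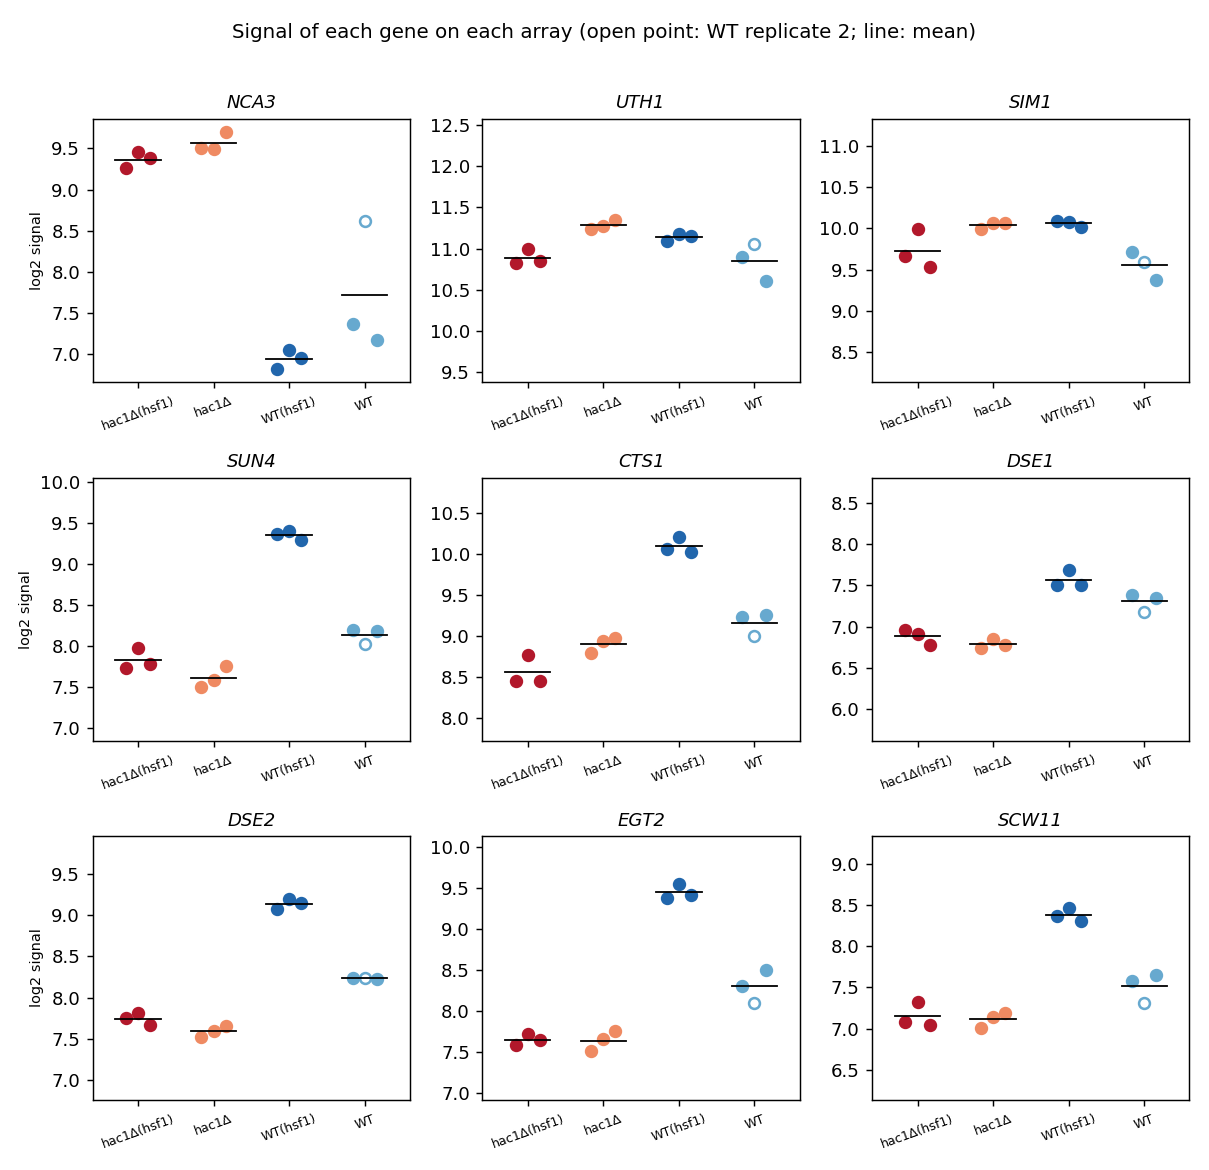
Log2 signal of each of the 9 genes on each of the 12 arrays, with 1 point per array and a line at the strain mean (n = 3). NCA3 sits between 9.26 and 9.70 on the 6 arrays without HAC1, and the open point marks WT replicate 2, at 8.62 for NCA3. Each panel spans the same number of log2 units.

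NCA3, which together with NCA2 promotes expression of the mitochondrial genes for ATP synthase subunits Atp6 and Atp8, gave signals of 9.26, 9.45 and 9.38 in hac1∆(hsf1), 9.50, 9.49 and 9.70 in hac1∆, 6.82, 7.05 and 6.96 in WT(hsf1), and 7.37, 8.62 and 7.17 in WT. The arrays without HAC1 all lay above all arrays with it. WT replicate 2 lay 1.35 above the mean of the other WT arrays, in the same array where HSF1 lay 1.52 above them, and the part of either in the other was not tested. Among the 9 genes, NCA3 was the furthest from its strain on that array.

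UTH1, a wall protein also described at mitochondria, gave 10.83, 10.99 and 10.85 in hac1∆(hsf1), 11.24, 11.27 and 11.35 in hac1∆, 11.10, 11.18 and 11.16 in WT(hsf1), and 10.90, 11.05 and 10.61 in WT. SIM1, whose product is secreted, gave 9.66, 9.99 and 9.53 in hac1∆(hsf1), 9.997, 10.06 and 10.06 in hac1∆, 10.09, 10.08 and 10.02 in WT(hsf1), and 9.71, 9.59 and 9.38 in WT. For both genes hac1∆(hsf1) and WT overlapped, and hac1∆ lay above each of them on every array. For SIM1 hac1∆ and WT(hsf1) also overlapped.

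SUN4, a wall protein whose loss in yeast leaves daughters attached, gave 7.73, 7.98 and 7.79 in hac1∆(hsf1), 7.51, 7.58 and 7.76 in hac1∆, 9.37, 9.39 and 9.29 in WT(hsf1), and 8.20, 8.03 and 8.18 in WT. WT(hsf1) stood above every other array and the strains without HAC1 below WT. This order is that of the separation genes and of no other SUN gene.

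CTS1, the endochitinase that digests the septum, gave 8.45, 8.77 and 8.46 in hac1∆(hsf1), 8.80, 8.94 and 8.97 in hac1∆, 10.06, 10.20 and 10.02 in WT(hsf1), and 9.24, 9.0045 and 9.25 in WT. Its 4 strains did not overlap, and it was the separation gene with its lowest mean in hac1∆(hsf1) rather than in hac1∆. SCW11, a wall protein related to glucanases, gave 7.08, 7.33 and 7.05 in hac1∆(hsf1), 7.01, 7.15 and 7.19 in hac1∆, 8.37, 8.46 and 8.31 in WT(hsf1), and 7.58, 7.31 and 7.65 in WT. For SCW11 the arrays of hac1∆(hsf1) overlapped with those of hac1∆ and, through WT replicate 2, with those of WT.

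DSE2, a daughter-specific secreted protein, gave 7.75, 7.82 and 7.67 in hac1∆(hsf1), 7.53, 7.59 and 7.65 in hac1∆, 9.07, 9.19 and 9.15 in WT(hsf1), and 8.24, 8.24 and 8.22 in WT. EGT2, a wall protein of early G1 cells needed for timely separation, gave 7.59, 7.72 and 7.64 in hac1∆(hsf1), 7.51, 7.66 and 7.75 in hac1∆, 9.37, 9.54 and 9.42 in WT(hsf1), and 8.31, 8.10 and 8.50 in WT. DSE1, a daughter-specific protein of less defined role, gave 6.96, 6.91 and 6.78 in hac1∆(hsf1), 6.74, 6.85 and 6.77 in hac1∆, 7.51, 7.69 and 7.51 in WT(hsf1), and 7.38, 7.18 and 7.35 in WT. In EGT2 and DSE1 the strains without HAC1 overlapped with each other, and in all 3 genes they lay below both strains with HAC1.

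Strains without and with HAC1 were first compared as hac1∆(hsf1) and WT(hsf1). This pair shares no array with the comparison on which NCA3 was picked. The strains differed in more than HAC1. HSF1 averaged 10.67 in hac1∆(hsf1) and 8.52 in WT(hsf1), and the gene URA3 averaged 9.60 and 10.91. The part of these differences in the changes below was not tested. NCA3 rose and the other 8 genes fell. NCA3 was 5.36-fold higher in hac1∆(hsf1), with a log2 fold change of 2.42 ± 0.27 (SE, 3 arrays per strain, limma adjusted p = 2.68e-06). The SE is pooled over all 12 arrays and so holds the spread of WT, and without WT replicate 2 it was 0.08. By size of rise NCA3 was the 19th of 5449 genes.

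All 5 separation genes fell between these strains. EGT2 was 3.46-fold lower in hac1∆(hsf1) (log2 fold change −1.79 ± 0.09, limma adjusted p = 1.92e-09), and CTS1 was 2.90-fold lower (−1.54 ± 0.09, adjusted p = 8.41e-09). DSE2 changed by −1.40 ± 0.05, SCW11 by −1.23 ± 0.09 and DSE1 by −0.68 ± 0.07, with adjusted p of 1.41e-10, 7.47e-08 and 1.37e-06. In RNA of whole cultures, fewer daughter cells in early G1 and less RNA per such cell cannot be told apart. The 5 genes of haploid a cells were also all lower in hac1∆(hsf1), with a median of −0.999, and MF(ALPHA)1 changed by −0.72 ± 0.16 (adjusted p = 0.000957).

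The 3 other SUN genes fell as well, by unequal amounts. SUN4 was 2.86-fold lower in hac1∆(hsf1) (−1.52 ± 0.08, limma adjusted p = 2.06e-09), while SIM1 changed by −0.34 ± 0.10 (adjusted p = 0.00978) and UTH1 by −0.25 ± 0.09 (adjusted p = 0.0199). Over all genes 41.7% were called higher and 35.8% lower at an adjusted p under 0.05, with a median change of 0.04, so 1 of 9 members higher and 8 lower stands on a background in which most genes were called. The arrays did not overlap for any of the 9, as for 42.5% of all genes on the higher and 36.9% on the lower side. UTH1 was not called with quantile normalization (−0.23), nor without WT(hsf1) replicate 2 or 3 or hac1∆(hsf1) replicate 1 or 3 (−0.25 to −0.22), and SIM1 was not called without hac1∆(hsf1) replicate 3 (−0.24).

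**Figure D2:**
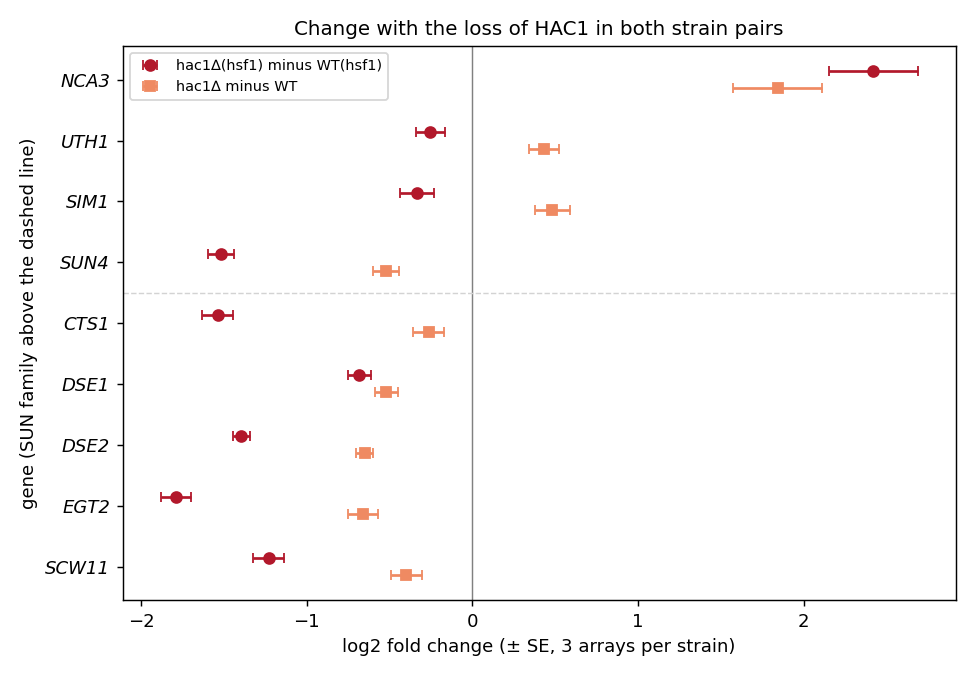
Log2 fold change of each gene, with its SE from 3 arrays per strain, between hac1∆(hsf1) and WT(hsf1) (circles) and between hac1∆ and WT (squares). NCA3 lies to the right in both pairs, SUN4 and the 5 separation genes lie to the left in both, and UTH1 and SIM1 change side.

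In the pair hac1∆ and WT the separation genes and SUN4 were again lower, by smaller amounts, and UTH1 and SIM1 were higher. EGT2 changed by −0.66 ± 0.09 (limma adjusted p = 9.66e-05), DSE2 by −0.65 ± 0.05 (adjusted p = 1e-06), DSE1 by −0.52 ± 0.07 (adjusted p = 7.9e-05) and SCW11 by −0.40 ± 0.09 (adjusted p = 0.00365). SUN4 changed by −0.52 ± 0.08 (adjusted p = 0.000177). UTH1 rose by 0.43 ± 0.09 (adjusted p = 0.00159) and SIM1 by 0.48 ± 0.10 (adjusted p = 0.00201). In the same pair 1 of the 5 a-cell genes was higher and 2 were lower, and MF(ALPHA)1 changed by −2.33 ± 0.16 (adjusted p = 2.86e-07).

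CTS1 had the smallest change of the separation genes between hac1∆ and WT, −0.26 ± 0.09 (limma adjusted p = 0.0327). It was not called without WT replicate 1 or 3 or hac1∆ replicate 1 or 2 (−0.28 to −0.21). Of the 8 genes tested 2 were called higher and 6 lower, against 28.4% and 22.3% of all genes, and without WT replicate 2 the counts were also 2 and 6. The arrays of the 8 did not overlap, 2 higher and 6 lower, as for 34.2% and 25.9% of all genes. NCA3 averaged 9.56 ± 0.12 in hac1∆ and 7.72 ± 0.78 in WT (SD, n = 3 each), a difference of 1.84, and 2.29 without WT replicate 2. The next gene below it by size of rise was ADH6, an alcohol dehydrogenase, at 1.54.

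The comparison of WT(hsf1) with WT asks what differs with (hsf1) where HAC1 is present. The gene URA3 changed by −0.88 ± 0.07 in this pair (limma adjusted p = 1.23e-07), and its part in the changes below was not tested. All 8 genes tested rose, with SUN4 and EGT2 in front. SUN4 was 2.32-fold higher in WT(hsf1) (log2 fold change 1.21 ± 0.08, limma adjusted p = 2.67e-08) and EGT2 was 2.21-fold higher (1.14 ± 0.09, adjusted p = 2.02e-07). CTS1 changed by 0.93 ± 0.09, DSE2 by 0.90 ± 0.05 and SCW11 by 0.87 ± 0.09, with adjusted p of 1.59e-06, 8.66e-09 and 3.37e-06. Of the 5 a-cell genes 3 were also higher and 0 lower (median 0.42), though 1 was called lower without WT replicate 1 or WT(hsf1) replicate 2 or 3, and MF(ALPHA)1 changed by −1.85 ± 0.16 (adjusted p = 3.3e-07).

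Smaller rises in WT(hsf1) over WT were seen in SIM1 (0.51 ± 0.10, limma adjusted p = 0.000821), UTH1 (0.29 ± 0.09, adjusted p = 0.0117) and DSE1 (0.26 ± 0.07, adjusted p = 0.00542). Over all genes 32.3% were called higher and 33.8% lower, with a median of −0.01, while the median of the 8 genes was 0.89. None of the 8 overlapped between the strains, all being higher, where 34.5% of all genes were higher and 37.0% lower without overlap. Without WT replicate 2 all 8 were still called higher, from 0.20 for DSE1 to 1.16 for SUN4. NCA3 averaged 6.94 ± 0.12 in WT(hsf1) and 7.72 ± 0.78 in WT (SD, n = 3 each). That difference, −0.78, was −0.33 without WT replicate 2, and since it shares the WT arrays on which NCA3 was picked it was not tested.

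In cells without HAC1, the members showed small differences of both signs with (hsf1). The gene URA3 changed by −2.53 ± 0.07 between hac1∆(hsf1) and hac1∆ (limma adjusted p = 2.22e-10), the largest fall of all genes. Its part in the differences of the members was not tested. Between hac1∆(hsf1) and hac1∆, UTH1 fell by 0.39 ± 0.09 on the log2 scale (limma adjusted p = 0.00221), CTS1 by 0.34 ± 0.09 (adjusted p = 0.00708) and SIM1 by 0.31 ± 0.10 (adjusted p = 0.0207). SUN4 rose by 0.22 ± 0.08 (adjusted p = 0.0306) and DSE2 by 0.16 ± 0.05 (adjusted p = 0.0207). DSE1 (0.10 ± 0.07), SCW11 (0.04 ± 0.09) and EGT2 (0.01 ± 0.09) did not pass, with adjusted p of 0.248, 0.758 and 0.929. Of the 5 a-cell genes 1 was higher and 3 were lower (median −0.50), against 26.5% and 30.7% of all genes. MF(ALPHA)1 changed by −0.25 ± 0.16 (limma adjusted p = 0.202).

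Of the 8 genes tested, 2 were thus called higher and 3 lower in hac1∆(hsf1) than in hac1∆, against 26.5% and 30.7% of all genes. DSE2 was higher and UTH1, SIM1 and CTS1 lower without overlap, where 29.3% and 33.4% of all genes were. Neither rise was called without hac1∆ replicate 1 or 2 or without hac1∆(hsf1) replicate 2, where SUN4 changed by 0.14 to 0.20 and DSE2 by 0.12 to 0.16. SIM1 was not called without hac1∆ replicate 2 or 3 or hac1∆(hsf1) replicate 1 or 3 (−0.30 to −0.21), and with quantile normalization SUN4 (0.19) and SIM1 (−0.25) were not called. NCA3 averaged 9.36 ± 0.10 in hac1∆(hsf1) and 9.56 ± 0.12 in hac1∆ (SD, n = 3 each), and it was not tested here because the hac1∆ arrays had served to pick it.

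The difference between the strains with and without (hsf1) was unlike in cells lacking and cells having HAC1 for 7 of the 8 genes tested. The pairs were also unlike in HSF1 itself. It rose by 2.84 ± 0.30 in hac1∆(hsf1) over hac1∆ (limma adjusted p = 5.63e-06). Between WT(hsf1) and WT it changed by −0.08 ± 0.30 (adjusted p = 0.831), with WT replicate 2 (9.61) included. The WT(hsf1) arrays, at 8.41 to 8.63, all lay above WT replicates 1 and 3, at 8.08 and 8.11. URA3 changed by −2.53 ± 0.07 between hac1∆(hsf1) and hac1∆ and by −0.88 ± 0.07 between WT(hsf1) and WT. The part of HSF1 or URA3 in the interaction was not tested. The interaction, which is hac1∆(hsf1) minus hac1∆, less WT(hsf1) minus WT, was −1.28 ± 0.13 for CTS1 (limma adjusted p = 2.08e-06) and −1.13 ± 0.13 for EGT2 (adjusted p = 5.65e-06). It was −0.996 ± 0.11 for SUN4, −0.83 ± 0.13 for SCW11 and −0.75 ± 0.07 for DSE2. UTH1 (−0.69 ± 0.13) and SIM1 (−0.82 ± 0.15) also passed, and these 2 genes were higher in hac1∆ than in WT, whereas hac1∆(hsf1) had less of both than WT(hsf1).

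DSE1 was the exception, with an interaction of −0.16 ± 0.10 that did not pass (limma adjusted p = 0.164). Over all genes 35.7% had a positive and 34.0% a negative interaction, against 0 and 7 of these 8, and the same 0 and 7 were counted without WT replicate 2. For NCA3 the interaction was 0.58 ± 0.38, given with no test.

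**Figure D3:**
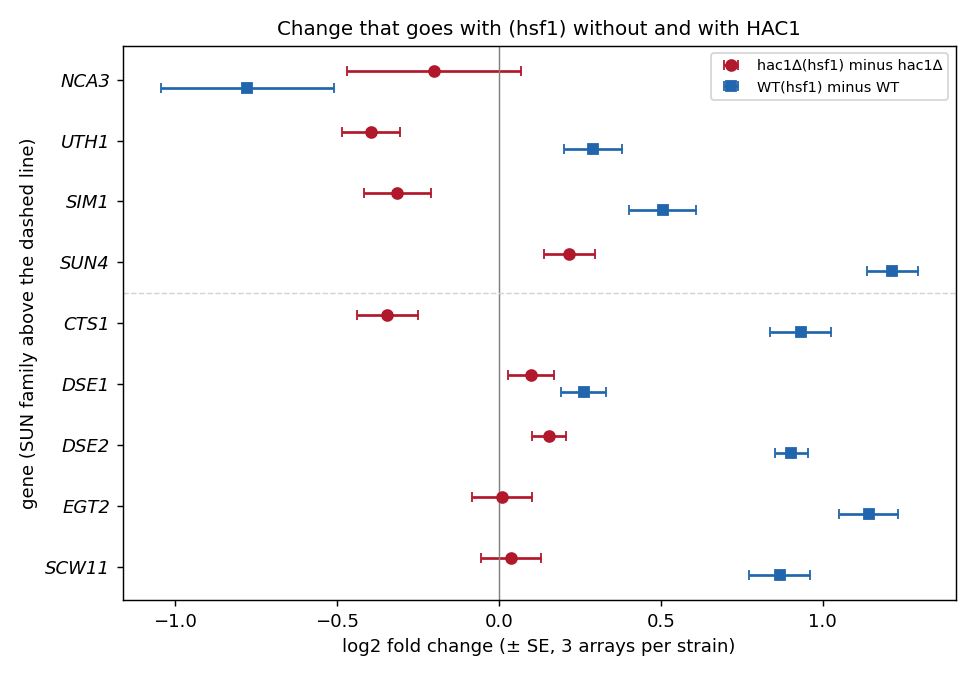
Log2 fold change of each gene, with its SE from 3 arrays per strain, between hac1∆(hsf1) and hac1∆ (circles) and between WT(hsf1) and WT (squares). In the pair with HAC1 all genes but NCA3 lie to the right of 0, up to 1.21 for SUN4, and in the pair without HAC1 they lie between −0.39 and 0.22.

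Set directly against WT, hac1∆(hsf1) had lower separation genes and SUN4, and UTH1 and SIM1 did not pass the test. EGT2 fell by 0.65 ± 0.09 (limma adjusted p = 9.18e-05), CTS1 by 0.61 ± 0.09 (adjusted p = 0.00016), DSE2 by 0.49 ± 0.05 (adjusted p = 1.14e-05) and DSE1 by 0.42 ± 0.07 (adjusted p = 0.000298). SCW11 fell by 0.36 ± 0.09 (adjusted p = 0.00549) and SUN4 by 0.30 ± 0.08 (adjusted p = 0.00553). UTH1 changed by 0.04 ± 0.09 and SIM1 by 0.17 ± 0.10, with adjusted p of 0.742 and 0.177. All 5 a-cell genes were also lower (median −0.57), and MF(ALPHA)1 changed by −2.57 ± 0.16 (adjusted p = 1.52e-07).

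The count of 0 higher and 6 lower among the 8 genes in hac1∆(hsf1) against WT compares with 29.0% and 28.1% of all genes. Without overlap 0 were higher and 5 lower, SCW11 being the one that overlapped, against 29.5% and 28.3% of all genes. Without WT replicate 2 the test again called 0 higher and 6 lower. NCA3 was 1.65 higher in hac1∆(hsf1) than in WT (2.09 without WT replicate 2), and this was not tested because of the shared WT arrays. The comparisons that use WT share its arrays.

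Ordered by mean level, SUN4 and the separation genes ran from WT(hsf1) through WT to the strains without HAC1. WT(hsf1) and WT did not overlap in any of these 6 genes. The lowest neighbours in the order, hac1∆(hsf1) and hac1∆, overlapped for SUN4, DSE1, EGT2 and SCW11 and did not for CTS1 and DSE2. NCA3 ran from hac1∆ through hac1∆(hsf1) and WT to WT(hsf1), with no overlap between neighbours.

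Across the 12 arrays, the 5 separation genes correlated with each other at Pearson's r of 0.882 to 0.992, and SUN4 with them at 0.900 to 0.988. NCA3 ran against these 6 genes, at −0.964 to −0.860. UTH1 and SIM1 correlated at 0.861 with each other and at −0.162 to 0.440 with the separation genes. The 12 points are 3 arrays of each of 4 strains and mostly restate the strain means, so they are a description.

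Of 5264 other genes above background in at least 1 strain, those most like NCA3 over the 12 arrays were PTP2, a protein tyrosine phosphatase (r = 0.989), CDC7, a replication kinase (0.986), RPT6, a proteasome ATPase (0.983), MPC54, a spindle pole protein of meiosis (0.983), and RPN10, a proteasome subunit (0.981). Their range was narrower than that of NCA3. PTP2 averaged 8.96 in hac1∆(hsf1), 8.92 in hac1∆, 8.17 in WT(hsf1) and 8.37 in WT. The genes most like the mean of the 5 separation genes were RAP1, a telomere and promoter binding factor (0.994), DSE4, a daughter-specific glucanase (0.991), ALG3, a mannosyltransferase (0.987), YHM2, a mitochondrial carrier (0.986), and GCV3, a glycine cleavage subunit (0.985).

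HO, the endonuclease gene transcribed in mother cells, did not run opposite to the separation genes. It gave 6.18, 6.11 and 6.20 in hac1∆(hsf1), 6.17, 6.19 and 6.35 in hac1∆, 8.62, 8.72 and 8.63 in WT(hsf1), and 6.84, 6.66 and 6.91 in WT. Its change was −2.49 ± 0.07 between hac1∆(hsf1) and WT(hsf1) (limma adjusted p = 2.36e-11). It was −0.57 ± 0.07 between hac1∆ and WT (adjusted p = 3.01e-05) and 1.85 ± 0.07 between WT(hsf1) and WT (adjusted p = 4.59e-10). The other daughter-cell markers, AMN1 and ASH1, were unlike each other. In the same order AMN1 changed by −0.98 ± 0.06, −0.58 ± 0.06 and 0.76 ± 0.06 (adjusted p = 6.67e-09, 6.47e-06 and 1.08e-07). ASH1 changed by 0.02 ± 0.08, 0.22 ± 0.08 and 0.12 ± 0.08 (adjusted p = 0.813, 0.0335 and 0.211). Between hac1∆(hsf1) and hac1∆, AMN1 rose by 0.37 ± 0.06 (limma adjusted p = 0.000144), where the median of the separation genes was 0.04. HO (−0.07 ± 0.07) and ASH1 (−0.08 ± 0.08) did not pass there, with adjusted p of 0.39 and 0.395.

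The kinase network of Cbk1, called RAM, which acts in cell separation and polarity, was measured through 6 genes. CBK1 itself did not pass between hac1∆(hsf1) and WT(hsf1) (0.13 ± 0.07, limma adjusted p = 0.138), nor between WT(hsf1) and WT (−0.10 ± 0.07, adjusted p = 0.239). In the first of these pairs 3 genes rose and 1 fell, with HYM1, a scaffold protein, at 0.59 ± 0.06 and MOB2 at −0.56 ± 0.07. In the second 1 rose (0 without WT(hsf1) replicate 1 or 3) and 2 fell, with KIC1, the upstream kinase, at −0.57 ± 0.06 and HYM1 at −0.29 ± 0.06. In hac1∆ against WT 3 rose and 1 fell, with KIC1 at −0.38 ± 0.06 and SOG2, a further network protein, at 0.35 ± 0.07. Over all genes 41.7% were called higher and 35.8% lower in the first pair, and 32.3% and 33.8% in the second. In hac1∆ against WT 28.4% and 22.3% were. With 6 genes, these counts are a description.

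**Figure D4:**
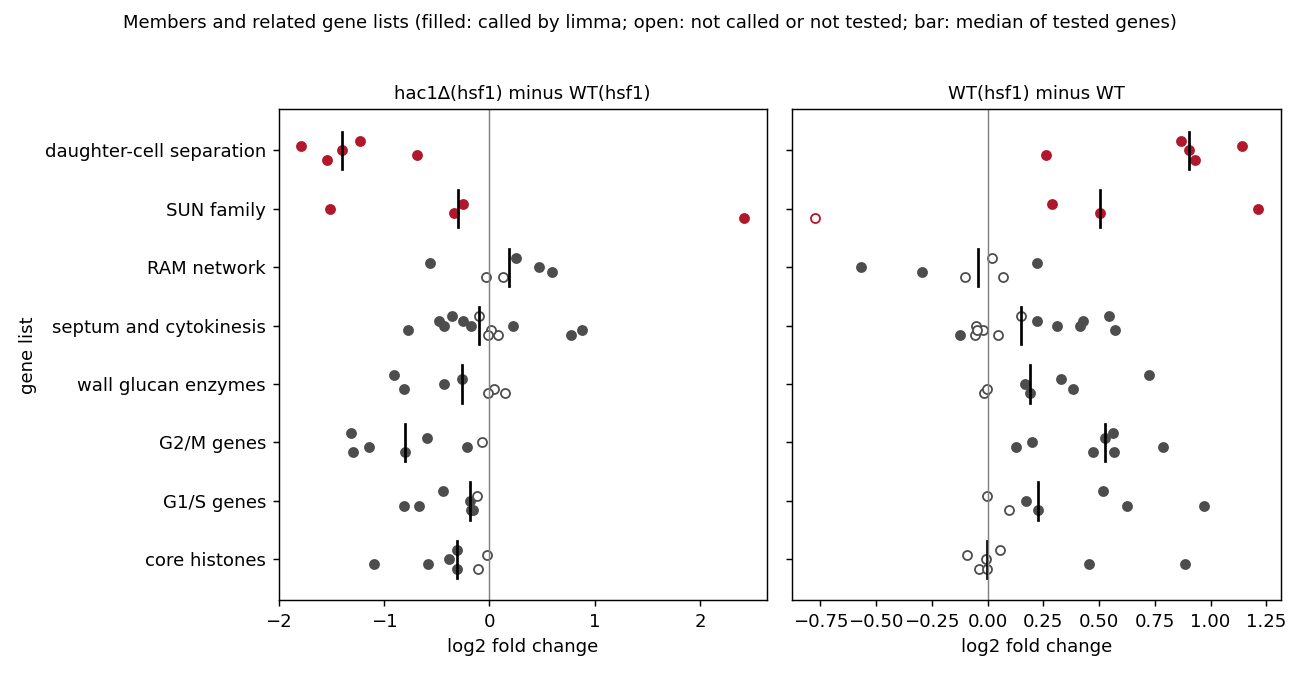
Log2 fold changes of the members (red) and of 6 related gene lists (grey) between hac1∆(hsf1) and WT(hsf1) and between WT(hsf1) and WT, with 1 point per gene, filled where limma called it, and a bar at the median of the genes tested. The separation genes have medians of −1.40 and 0.90, and among the grey lists the genes of G2 and mitosis have the medians furthest from 0, at −0.80 and 0.53.

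Genes that peak in G2 and mitosis were lower in hac1∆(hsf1) than WT(hsf1) and higher in WT(hsf1) than WT, as the separation genes were. The lists parted between hac1∆ and WT and between hac1∆(hsf1) and hac1∆. Between hac1∆(hsf1) and WT(hsf1), 6 of 7 fell and none rose (median −0.80), with CLB1, a mitotic cyclin, at −1.31 ± 0.07 and ALK1, a mitotic kinase, at −1.29 ± 0.07 (limma adjusted p = 4.02e-09 and 4.33e-09). Between WT(hsf1) and WT all 7 rose (median 0.53), with BUD4, a bud neck protein, at 0.78 ± 0.07 and ALK1 at 0.57 ± 0.07. In hac1∆ against WT 1 rose and 2 fell (median −0.04), where all 5 separation genes fell. In hac1∆(hsf1) against hac1∆ 5 fell and none rose (median −0.26), where 1 separation gene rose and 1 fell (median 0.04). Of all genes 26.5% were called higher and 30.7% lower there, and 28.4% and 22.3% between hac1∆ and WT. The shares were 41.7% and 35.8% between hac1∆(hsf1) and WT(hsf1), and 32.3% and 33.8% between WT(hsf1) and WT. CLB2, counted among the G2 and mitosis genes that fell in hac1∆(hsf1) against hac1∆, was near background. It averaged 5.39 in hac1∆(hsf1), below background on all 3 arrays, and 5.61 in hac1∆. The part of the cell cycle in the change of the separation genes was not tested.

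G1/S genes and core histones gave mixed results. Between hac1∆(hsf1) and WT(hsf1), 6 of 7 G1/S genes fell and none rose, with RNR1, ribonucleotide reductase, at −0.81 ± 0.07 and CLB6, an S phase cyclin, at −0.67 ± 0.05, and 5 of 7 histone genes fell and none rose, with HTB2 at −1.10 ± 0.11. Between WT(hsf1) and WT, 5 G1/S genes rose and none fell (median 0.22), while 2 histone genes rose and 5 did not pass. Between hac1∆ and WT these lists parted, with 5 G1/S genes higher (3 without WT replicate 3) and 1 lower, led by the G1 cyclins CLN1 (0.57 ± 0.07) and CLN2 (0.57 ± 0.07), and 5 histone genes lower and none higher. Near-identical histone genes may share signal. The shares of all genes called higher and lower were 41.7% and 35.8% between hac1∆(hsf1) and WT(hsf1). They were 32.3% and 33.8% between WT(hsf1) and WT, and 28.4% and 22.3% between hac1∆ and WT.

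Septum and cytokinesis genes moved both ways. Between hac1∆(hsf1) and WT(hsf1), 3 of 13 septum and cytokinesis genes rose and 6 fell (median −0.10), with IQG1, the ring scaffold, at 0.88 ± 0.12 and CHS1, the repair chitin synthase, at 0.78 ± 0.08. Among those that fell were CHS2, which builds the primary septum, at −0.77 ± 0.06, CYK3, a cytokinesis protein, at −0.48 ± 0.06 and MYO1, the ring myosin, at −0.43 ± 0.07. Between WT(hsf1) and WT 6 rose and 1 fell (0 fell without WT replicate 3 or WT(hsf1) replicate 1 or 3), with CHS2 at 0.57 ± 0.06 (limma adjusted p = 3.3e-06). Between hac1∆ and WT 6 rose and 2 fell, led by CHS1 (0.68 ± 0.08) and CHS3 (0.67 ± 0.08), the 2 chitin synthase genes outside the primary septum. Of 7 wall glucan enzymes 4 fell and none rose between hac1∆(hsf1) and WT(hsf1), with GAS1 at −0.91 ± 0.04 and SCW4 at −0.81 ± 0.07. Between hac1∆ and WT 4 rose and none fell, with SCW10 at 0.78 ± 0.07 and GAS1 at 0.43 ± 0.04. The counts of both lists stand beside 41.7% of all genes higher and 35.8% lower between hac1∆(hsf1) and WT(hsf1). The shares were 32.3% and 33.8% between WT(hsf1) and WT, and 28.4% and 22.3% between hac1∆ and WT.

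NCA2, the partner of NCA3 in mitochondrial gene expression, gave 7.32, 7.35 and 7.28 in hac1∆(hsf1), 7.72, 7.80 and 7.70 in hac1∆, 7.12, 7.16 and 7.07 in WT(hsf1), and 7.36, 7.27 and 7.25 in WT. It was 0.20 ± 0.05 higher in hac1∆(hsf1) than in WT(hsf1) (limma adjusted p = 0.00228) and 0.45 ± 0.05 higher in hac1∆ than in WT (adjusted p = 1.35e-05). Both changes were smaller than those of NCA3. The measured genes next to NCA3 on its chromosome, PHO86 and ASF1, changed by 0.31 ± 0.07 and 0.30 ± 0.07 between hac1∆(hsf1) and WT(hsf1). Of the 18 genes next to the 9 members, 5 rose and 8 fell in that comparison, against 41.7% and 35.8% of all genes. Their median was −0.07, against 0.04 over all genes. The changes ran from −1.75 for RPL9B, next to SUN4, to 0.48 for POG1, next to SIM1. AQR1, also next to SUN4, changed by −1.06 ± 0.09, and CGR1, next to SCW11, by −1.27 ± 0.08. Whether members and their neighbours change together was not tested.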

How the data were processed

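The authors deposited log2 signals, 1 per probe set and array, and the submitters' processing notes name PLIER with no version. Neither the background correction, the normalization nor the base of the logarithm is stated in the labels, and base 2 was inferred from the range of 4.84 to 12.75 over 10928 probe sets. Of these, 7244 had 1 listed gene symbol, 1 had several and 3683 had none. Entrez identifiers matched 5498 probe sets to the R64 gene table, which gave 5449 genes (highest-mean probe set for 47 genes with several, 12 symbols updated). The 1746 with a listed gene outside that table were taken as the array's other yeast, and the 95th percentile of their means, 5.49, as background. The deposited values were fitted without further change in limma 3.58.1 (R 4.3.3), with 1 mean per strain over 12 arrays and no block. P-values were adjusted by Benjamini-Hochberg over all genes, and an adjusted p under 0.05 is a call. The fit was tested on simulated data. Named genes were the members, the 2 called genes with the largest change of each related list, HO, NCA2, and strain and mating-type checks. The daughter-cell markers AMN1 and ASH1 and the 5 genes most like NCA3 or the separation genes in pattern were also named. CBK1, CLB2, CYK3, MYO1 and the named neighbours of members were added after values were seen. Members and lists were chosen with earlier results of these data known. Same-numbered arrays of hac1∆ and hac1∆(hsf1) deviated together across genes (r = 0.502, 0.152 and 0.342), where unlike-numbered ones gave −0.461 to 0.156. Those of WT(hsf1) and hac1∆ were also positive but smaller, at 0.136, 0.100 and 0.088. One related list is not reported here. No sequence is printed. The number of arrays limits the precision.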

Additional observations from a re-analysis of the deposited data

Results flagged for a closer look

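For 7 members and for HO, the difference between strains with and without (hsf1) was not the same in hac1∆ cells as in WT cells by limma's interaction term, computed as hac1∆ cells minus WT cells. The values were −0.69 for UTH1, −0.82 for SIM1, −0.996 for SUN4, −1.28 for CTS1, −0.75 for DSE2, −1.13 for EGT2, −0.83 for SCW11 and −1.93 for HO. Over all genes 34.0% had a negative and 35.7% a positive interaction past the threshold. HSF1 itself changed by 2.84 between hac1∆(hsf1) and hac1∆ and by −0.08 between WT(hsf1) and WT. The second value includes WT replicate 2, at 9.61. The WT(hsf1) arrays (8.41 to 8.63) all lay above WT replicates 1 and 3 (8.08 and 8.11). URA3 changed by −2.53 and −0.88 in the same order of pairs. The part of HSF1 or URA3 was not tested.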

How the results depend on the processing

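Alternatives were quantile normalization, leaving out dim genes, the replicate block, the compared strains alone, array weights, an intensity trend, the mean of probe sets and leaving out each array. Adding the replicate block changed no call of a member, and neither did a block in a fit of hac1∆ and hac1∆(hsf1) alone, which was chosen after seeing the data. In both, the counts for hac1∆(hsf1) against hac1∆ stayed at 2 higher and 3 lower. With quantile normalization, and with the compared strains alone, 1 member was higher there, and without single arrays 0 to 2 were higher and 2 or 3 lower. In hac1∆(hsf1) against WT, leaving out arrays gave 0 or 1 higher, with SIM1 called at 0.27 without hac1∆(hsf1) replicate 3. In the other comparisons, no alternative moved a count of members by over 1.5 times. Of the 152 member results in WT(hsf1) against WT and the 144 in the interaction, all kept direction and call. Signs turned only for changes that were not called. In hac1∆(hsf1) against hac1∆, EGT2 was at −0.01 with quantile normalization, and without single arrays it ran from −0.0552 (hac1∆ replicate 1) to 0.0668, with −0.02 without hac1∆(hsf1) replicate 2. SCW11 ran from −0.050 (without hac1∆(hsf1) replicate 2) to 0.0895, with −0.015 without hac1∆ replicate 1. UTH1 in hac1∆(hsf1) against WT ran from −0.0831 (without WT replicate 3) to 0.137, with −0.013 without hac1∆(hsf1) replicate 2. The cause was not tested. All members lay above background on every array.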
